A study of Physalis pubescens with 5 samples.

Results

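The glycosidases described here are the transcripts of Physalis floridana P106 that are annotated as enzymes removing single sugars from hemicellulose and pectin, together with mannosidases of the same wording. They were taken by words in the BLAST description of each unigene, a unigene being a transcript assembled from the reads: fucosidase, alpha-xylosidase, beta-xylosidase, beta-galactosidase, arabinofuranosidase, alpha-galactosidase or mannosidase. The words matched 207 of 133571 unigenes, under 52 different descriptions, and no measured level entered the choice. By these words they fell into 80 beta-galactosidases, 47 alpha-mannosidases, 17 beta-xylosidases, 16 mannan endo-beta-mannosidases, 14 beta-mannosidases, 10 alpha-xylosidases, 10 alpha-galactosidases, 7 alpha-L-arabinofuranosidases and 6 alpha-L-fucosidases.

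Young fruits, sampled after fertilization, were set against floral buds, sampled before it, with 2 RNA libraries per organ. The growth text names the plants P. floridana P106, the organism field gives Physalis pubescens, and the 2 names are not reconciled in the labels. The labels name no transgene or treatment, and the plants were raised under glass in days of 16 h light and 8 h dark. The extraction text, which is the same for all libraries, mentions fruits of 5 days. The design text speaks of triplicates, a mixed library of both organs made for assembly was not analysed here, and the labels do not say whether an organ's libraries come from different plants. The p-values therefore reflect the spread among these libraries alone, which may be technical.

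Hemicelluloses and pectins carry side chains of xylose, galactose, fucose and arabinose. Exo-acting glycosidases of the wall space take such sugars off from the chain ends, which changes how the polymers bind to each other. In growing organs they trim xyloglucan that other enzymes have cut, and in ripening tomato fruit a beta-galactosidase acting on pectic galactan is known to affect softening. Not every member is a wall enzyme: alpha-mannosidases and mannosylglycoprotein endo-beta-mannosidases act on the N-linked sugars of glycoproteins, and alkaline alpha-galactosidases of the seed imbibition type are related to raffinose enzymes. The authors' KEGG terms, given for 169 members, named the matching enzyme for 6 of 6 fucosidases, 9 of 10 alpha-xylosidases, 6 of 7 arabinofuranosidases and 72 of 80 beta-galactosidases. They named raffinose synthase for 3 alpha-galactosidases, beta-glucosidase for 6 beta-xylosidases and for 5 beta-mannosidases, and nothing for the 16 mannan endo-beta-mannosidases. The label of wall trimming therefore covers the members only in part.

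Total counts were 9002212 in fruit replicate 1 and 8240033 in fruit replicate 2, against 8645903 in bud replicate 1 and 8375164 in bud replicate 2. A floor of 3 counts lay at 0.333 to 0.364 CPM (counts relative to the total of the library), and floors and intervals here cover counting error only. The fruit libraries stood far apart. Over the 59858 unigenes that passed the filter on low counts, 11.3% differed at least 4-fold between the fruits and 2.47% between the buds, after TMM scaling with a prior count of 2. Fruit replicate 2 resembled bud replicate 2, with 9.10% of unigenes more than 2-fold apart. The share was 16.6% between the buds, 30.1% between the fruits and 18.5% between fruit replicate 1 and bud replicate 1. Fruit replicate 2 was not set against bud replicate 1 in this way, and what the shared replicate number adds was not tested. Whether the label of fruit replicate 2 describes its tissue was not tested. The 49 unigenes described as pollen or anther transcripts, products of the male floral organs, summed to 804 CPM (fruit replicate 1) and 6421 CPM (fruit replicate 2), against 3165 and 3735 CPM in bud, and 13 of them were at 0 in fruit replicate 1, 1 in fruit replicate 2 and 2 in each bud. The 36 photosynthetic transcripts summed to 9416 and 2831 CPM in fruit, against 3584 and 3153 CPM in bud, with 3 at 0 in fruit replicate 1, 0 in fruit replicate 2, and 0 and 1 in the buds. The 46 seed and embryo transcripts summed to 245 and 634 CPM in fruit, against 5377 and 5567 CPM in bud. Of them, 9 and 8 were at 0 in the fruits and 2 and 7 in the buds. Most of the bud sum lay in 3 unigenes of 1 vicilin-like description. These stood at 3046, 926 and 792 CPM in bud replicate 1 and at 2871, 924 and 1065 CPM in bud replicate 2. Of the 19 tested in this list, 6 were higher in fruit in each pair of same-numbered libraries. A DEFICIENS transcript, which specifies petals and stamens, stood at 66.1 and 96.5 CPM in fruit, against 110 and 113 CPM in bud, so the floral marker was present in both organs. No marker that defines a young fruit was among the lists. What part these tissues have in the values below was not tested, and in bulk RNA fewer cells of a type and less RNA per cell cannot be told apart. Each result is given for both fruit libraries, and with either left out where that matters.

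The glycosidases as a group made up 1.27% of all counts in the first fruit library (exact 95% binomial interval 1.26 to 1.27) and 0.429% in fruit replicate 2 (0.424 to 0.433), against 0.392% in bud replicate 1 (0.388 to 0.397) and 0.353% in bud replicate 2 (0.349 to 0.357). Fruit replicate 1 stood apart from the other 3 libraries, and fruit replicate 2 lay close to the buds. Without the mannosidases, the sum was 10960 and 3451 CPM in fruit, against 2741 and 2533 CPM in bud. Family by family, the alpha-L-fucosidases, alpha-xylosidases and alpha-L-arabinofuranosidases were more than 10 times as high in fruit replicate 1 as in its same-numbered bud, whereas the beta-galactosidases and the mannan endo-beta-mannosidases were not higher there.

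**Figure D1:**
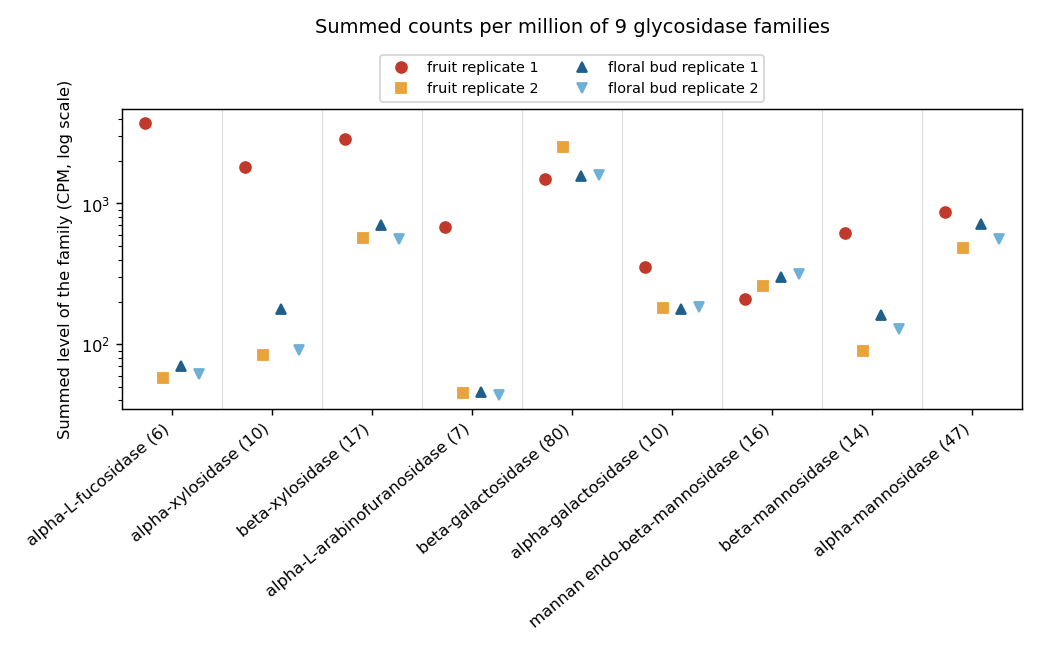
Summed CPM of each glycosidase family (log scale) in the 2 fruit and the 2 floral bud libraries, 1 point per library. Fucosidases stand at 3749 CPM in fruit replicate 1 and at 57.8 to 70.6 CPM in the other 3 libraries, and beta-galactosidases are highest in fruit replicate 2, at 2517 CPM.

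Of the 207 members, 163 passed the filter and were tested. With edgeR's quasi-likelihood test and p-values adjusted by Benjamini-Hochberg over all 59858 unigenes, 0 members passed 0.05 as higher in fruit and 0 as lower, against a background of 0.0% in each direction. At an unadjusted p under 0.05, 2 members were higher and 9 lower. Of 168 members tested with DESeq2, 0 were called higher and 0 lower, against backgrounds of 0.0491% and 0.21%. When fruit replicate 2 was dropped, edgeR called 29 of 174 members higher (16.7%, background 2.29%) and 13 lower (7.47%, background 6.14%). Leaving out fruit replicate 1 instead gave 1 call of 169 as higher (0.592%, background 1.44%) and 0 lower (background 0.466%). Each of these fits takes the single fruit library to be as variable as the buds, and they have the bud libraries in common. Of the 29 higher calls, 3 were of unigenes that passed the filter only in that fit, through their level in fruit replicate 1, so they had to differ. The 44 members not tested over all libraries had median levels of 0.33 and 0.24 CPM in the fruits and 0.35 and 0.18 CPM in bud.

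The median log2 change of the 163 tested members, fruit over bud, was 0.18, against 0.01 for all tested unigenes. Between libraries of the same number it was 0.21 for replicates 1 (all unigenes -0.04) and -0.04 for replicates 2 (all unigenes 0.00). In replicates 1, 13 members were at least 4-fold higher in fruit (7.98%, background 0.986%) and 13 at least 4-fold lower (7.98%, background 6.87%). In replicates 2, 0 were 4-fold higher (background 1.06%) and 1 was 4-fold lower (0.613%, background 0.785%). Between the fruits, 33 members differed at least 4-fold (20.2%, background 11.3%), and between the buds 1 did (0.613%, background 2.47%).

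**Figure D2:**
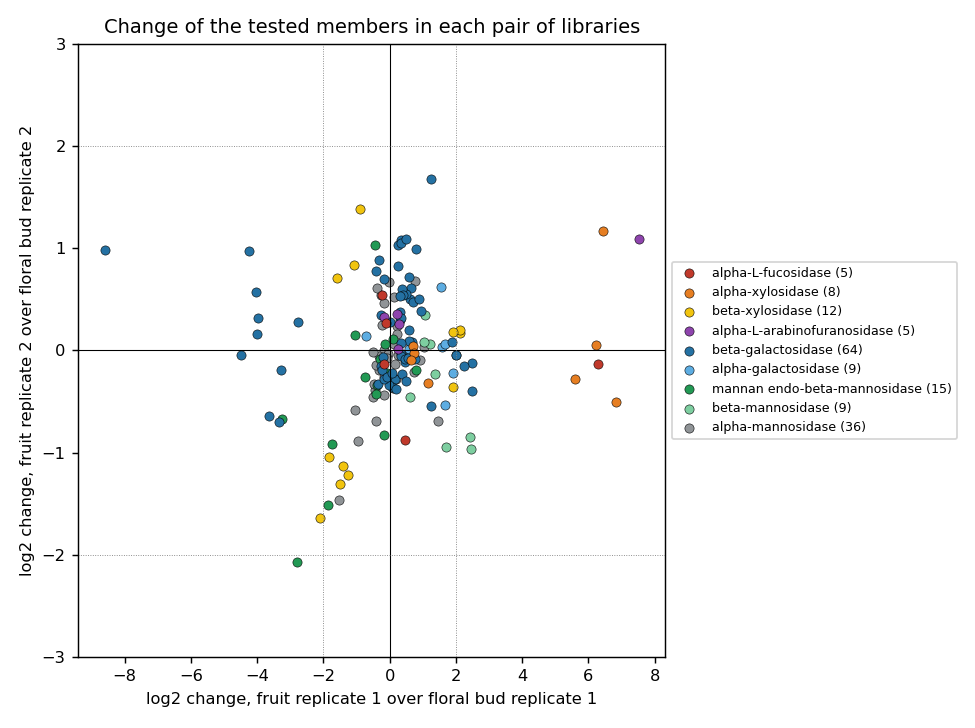
Log2 change of CPM (TMM-scaled, prior count 2) for the 163 tested members, fruit over bud replicate 1 on the x axis and fruit over bud replicate 2 on the y axis, coloured by family. The axes differ in scale: points spread far along x and little along y, with 13 members above 2 and 13 below -2 on x and 0 above 2 on y.

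Alpha-L-fucosidases release terminal fucose, and plant enzymes of this kind act on xyloglucan side chains or on glycoproteins; the description does not say which. All 6 members share the description alpha-L-fucosidase 1-like, and 1 of them, Unigene54055_P106, carried 99.4% and 58.4% of the family's counts in fruit, against 65.4% and 63.2% in bud. In the fruit libraries 1 and 2 it reached 3726 and 33.7 CPM, against 46.1 and 39.0 CPM in bud. Fruit replicate 1 alone was high, and fruit replicate 2 lay below both buds. Its log2 change was 5.37 (SE 2.13) over all libraries, not called by edgeR (Benjamini-Hochberg adjusted p 1). The change was 6.35 (SE 0.38) without fruit replicate 2, where edgeR called it (adjusted p 1.89e-15), and -0.21 (SE 0.45) without fruit replicate 1. With counts summed over the 6, edgeR gave a log2 change of 4.78 (SE 1.92, unadjusted p 0.0627), not called after Benjamini-Hochberg adjustment (adjusted p 1). Per unigene length Unigene54055_P106 was the most abundant member in fruit replicate 1, at 2317 RPKM (reads scaled to unigene length and library total), and it stood at 21.0 RPKM in fruit replicate 2 and at 28.7 and 24.3 RPKM in bud.

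The other fucosidases did not share that pattern. Unigene26367_P106 stood at 9.89 and 10.7 CPM in fruit, against 11.2 and 7.64 CPM in bud, and Unigene26104_P106 at 7.33 and 8.25 CPM, against 7.75 and 7.16 CPM. The organs overlapped in both, with log2 changes of 0.15 (SE 0.36) and 0.09 (SE 0.34).

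Alpha-xylosidases remove the xylose at the non-reducing end of xyloglucan oligosaccharides, as XYL1 of Arabidopsis does. The 10 members summed to 1802 and 84.7 CPM in fruit, against 179 and 90.5 CPM in bud. Their median log2 change was 6.42 without fruit replicate 2 and -0.32 without fruit replicate 1. The fit without fruit replicate 2 takes in Unigene27562_P106, which passed the filter only there, through fruit replicate 1. The leading pair is described as alpha-xylosidase 1-like isoform 2. Unigene127319_P106 had 678 and 4.85 CPM in fruit, against 7.29 and 2.15 CPM in bud, and Unigene28671_P106 had 565 and 3.88 CPM, against 7.06 and 3.94 CPM. In both, fruit replicate 1 was more than 100 times the bud mean, with fruit replicate 2 between or just under the bud values. Their log2 changes without fruit replicate 2 were 7.09 (SE 0.50) and 6.59 (SE 0.46), and without fruit replicate 1 they were 0.18 (SE 0.62) and -0.37 (SE 0.58).

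A further 3 alpha-xylosidase transcripts were also highest in fruit replicate 1, at lower levels, while the order of the other libraries varied. Unigene27893_P106, isoform 1, stood at 166 and 1.21 CPM in fruit, against 1.16 and 1.91 CPM in bud. Unigene29242_P106 stood at 80.8 and 0.24 CPM in fruit, against 1.39 and 0.36 CPM in bud, with fruit replicate 2 under the floor. Unigene27562_P106 was at 29.2 CPM in fruit replicate 1, at 0 in fruit replicate 2, and at 0 and 0.24 CPM in bud. In contrast, Unigene29588_P106, was present everywhere, at 179 and 37.9 CPM in fruit, against 106.3 and 38.6 CPM in bud. Its log2 change of 0.55 (SE 0.85) was smaller than its standard error, and bud replicate 1 stood above fruit replicate 2.

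Beta-xylosidases take xylose from xylan, and the bifunctional kind also releases arabinose from arabinan and arabinoxylan. The 2 unigenes described as beta-xylosidase/alpha-L-arabinofuranosidase 2 held most of this family. Unigene53081_P106 stood at 1442 and 259 CPM in fruit, against 319 and 242 CPM in bud, and Unigene53790_P106 at 1280 and 226 CPM, against 284 and 207 CPM. Their ratio was 1.13 and 1.14 in the fruits and 1.12 and 1.16 in the buds, so both moved together. Fragments of 1 transcript and separate copies of the gene cannot be told apart here. Without fruit replicate 2 their log2 changes were 2.27 and 2.29 (SE 0.36 each; edgeR, Benjamini-Hochberg adjusted p 7.44e-06 and 8.04e-06), and without fruit replicate 1 both were 0.01. Unlike the fucosidase, this enzyme was among the most abundant members in the buds too: Unigene53790_P106 had 1277 and 226 RPKM in the fruits and 284 and 207 RPKM in bud. Unigene143954_P106, a probable beta-D-xylosidase 6-like, stood at 112 and 25.4 CPM in fruit, against 28.7 and 23.5 CPM in bud, and was called without fruit replicate 2 (log2 change 2.0, SE 0.43).

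The 5 unigenes described as beta-D-xylosidase 1 precursor ran the other way, and here both fruit libraries lay below both buds. Summed, they were at 18.3 and 23.1 CPM in fruit, against 49.7 and 58.6 CPM in bud. When counts were summed over each description, the log2 change was -1.35 (SE 0.32, unadjusted p 0.0106), which edgeR did not call after Benjamini-Hochberg adjustment (adjusted p 1). Each of the 5 was at least 2-fold lower in both pairs of libraries. The most abundant, Unigene139386_P106, stood at 8.22 and 8.50 CPM in fruit, against 19.2 and 21.1 CPM in bud, and the least abundant, Unigene137975_P106, at 0.22 and 0.73 CPM, against 1.73 and 2.87 CPM. They share a description, so they are not counted as 5 independent cases.

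Alpha-L-arabinofuranosidases remove arabinose from arabinan, arabinoxylan and pectin side chains. The family's level in fruit replicate 1 rested on unigenes that were close to absent elsewhere. Unigene126981_P106, alpha-L-arabinofuranosidase 1-like, had 2634 and 2 counts in fruit, against 5 and 0 in the buds, and reads reached 95.9% and 12.9% of its length in fruit, against 20.5% and 0% in the buds. It was not tested over all libraries. Unigene127035_P106, of the same description, had 2575 and 2 counts in fruit, against 11 and 0 in the buds, and Unigene30777_P106 was at 47.5 and 0 CPM, against 0.23 and 0 CPM. No fold is given where a library held no counts. Unigene127035_P106 was called higher by edgeR without fruit replicate 2. The other 2 passed the filter only in that fit, through fruit replicate 1, so their calls there had to come out higher. Unigene128739_P106, described as an arabinofuranosidase precursor, stood at 31.0 and 29.6 CPM in fruit, against 25.1 and 30.9 CPM in bud, with a log2 change of 0.12 (SE 0.32).

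**Figure D3:**
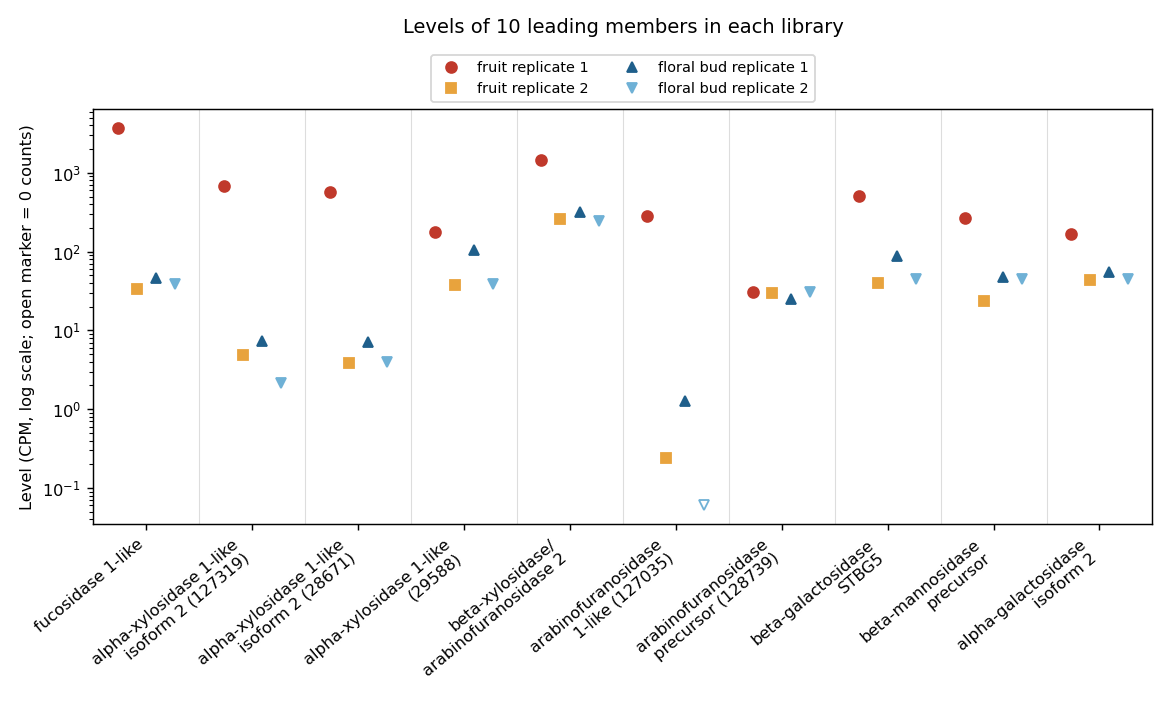
CPM (log scale) of 10 leading members in each of the 2 fruit and 2 floral bud libraries, 1 point per library, with an open marker at the place of 0 counts. Fruit replicate 1 stands apart above the other 3 libraries for the fucosidase Unigene54055_P106, at 3726 CPM, and for the alpha-xylosidase Unigene127319_P106, at 678 CPM.

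Beta-galactosidases remove galactose from pectic galactan, arabinogalactan and xyloglucan, and they were the largest family here. Their sum, 1482 and 2517 CPM in fruit, against 1560 and 1596 CPM in bud, hid members that ran in opposite directions. Without fruit replicate 2, edgeR called 5 of 67 higher (background 2.29%) and 10 lower (background 6.14%). In the buds Unigene52662_P106, beta-galactosidase 2 precursor, had the highest level per length of all members, at 308 and 380 RPKM. It stood at 1.44 and 1466 CPM in fruit, against 633 and 780 CPM in bud. The buds lay between the fruits, so the organ change over all libraries was 0.17 with an SE of 2.32. It was -9.03 (SE 0.65) without fruit replicate 2, called by edgeR at a Benjamini-Hochberg adjusted p of 7.73e-14, and 1.17 (SE 0.37) without fruit replicate 1.

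Beta-galactosidase 13-like transcripts shared this order. The 6 summed to 11.6 and 422 CPM in fruit, against 223 and 253 CPM in bud. Their median log2 change was -4.81 without fruit replicate 2 and 0.41 without fruit replicate 1. The leading one, Unigene54662_P106, stood at 9.0 and 356 CPM in fruit, against 169 and 191 CPM in bud. The 3 beta-galactosidase 15-like transcripts summed to 1.78 and 18.2 CPM in fruit, against 25.2 and 27.2 CPM in bud. Their median log2 change was -3.99 without fruit replicate 2 and -0.49 without fruit replicate 1. Among them Unigene47915_P106 had 0.33 and 2.55 CPM in fruit, against 6.82 and 4.30 CPM in bud. As a sum, pollen and anther transcripts had the same order of libraries as the 13-like group. They were low in fruit replicate 1 and high in fruit replicate 2 (804 and 6421 CPM), against 3165 and 3735 CPM in bud. A LAT52-like transcript, a relative of a tomato pollen protein, stood at 0.67 and 865 CPM in fruit, against 600 and 678 CPM in bud. The list was not uniform, as a pollen-specific protein C13-like transcript stood at 495 and 368 CPM, against 336 and 449 CPM. In replicates 1, 8 of the 40 tested were higher in fruit and 22 were at least 4-fold lower. The part of pollen and anther transcripts in these results was not tested.

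Another group of beta-galactosidases had the order of the fucosidase. Unigene1068_P106, named STBG5 after a tomato enzyme, stood at 511 and 39.4 CPM in fruit, against 88.0 and 45.3 CPM in bud, and Unigene2353_P106, of the same description, at 170 and 9.95 CPM, against 29.5 and 13.9 CPM. Without fruit replicate 2 their log2 changes were 2.86 (SE 0.41) and 2.89 (SE 0.45). The 5 beta-galactosidase 8-like transcripts summed to 55.7 and 7.65 CPM in fruit, against 12.6 and 8.72 CPM in bud. Their median log2 change was 2.41 without fruit replicate 2 and -0.56 without fruit replicate 1. As a sum, photosynthetic transcripts had the same order of libraries, at 9416 and 2831 CPM in fruit, against 3584 and 3153 CPM in bud. That list was not uniform either. In replicates 1, 20 of the 32 tested were higher in fruit, 1 was at least 4-fold higher and 3 were at least 4-fold lower. The part of photosynthetic transcripts was not tested. Other descriptions differed less between the fruits: the 13 beta-galactosidase-like transcripts summed to 180 and 121 CPM in fruit, against 175 and 139 CPM in bud. The 16 described as beta-galactosidase precursor summed to 188 and 139 CPM, against 130 and 99.6 CPM. Both fruits lay above both buds for 6 of the 15 tested, against 8.49% of all tested unigenes. The 4 chloroplastic precursors summed to 173 and 147 CPM, against 114 and 108 CPM.

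**Figure D4:**
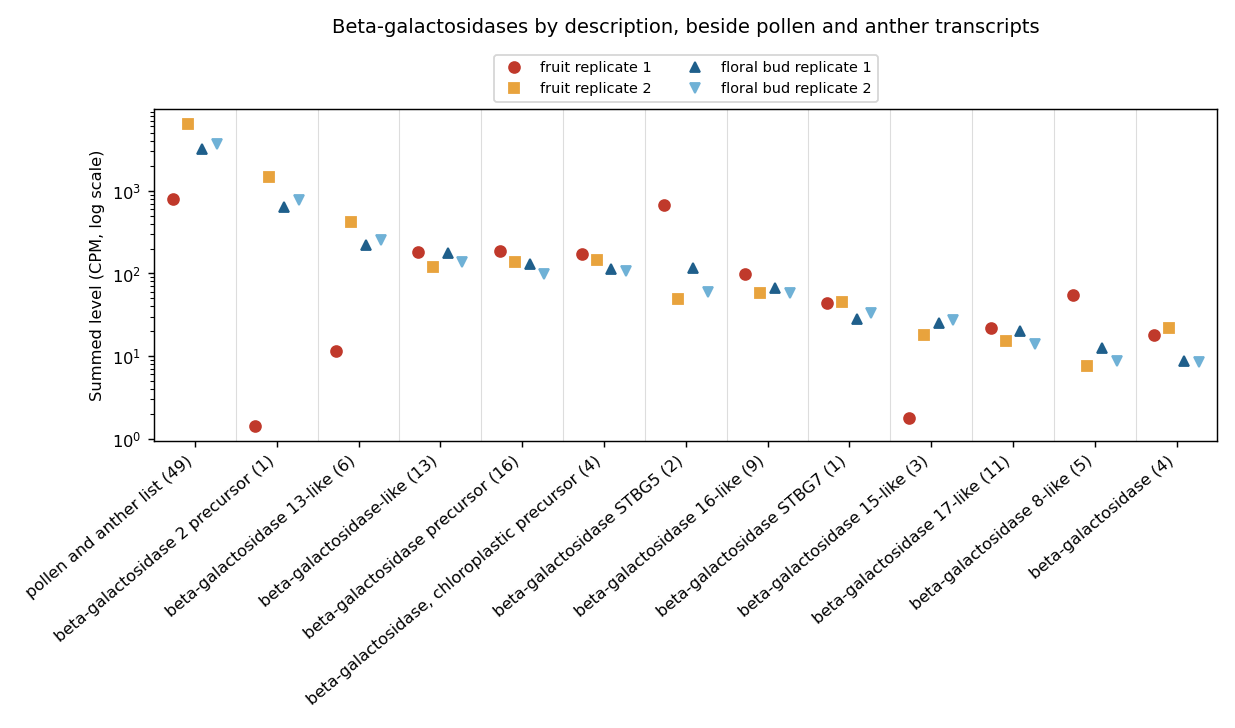
Summed CPM (log scale) of beta-galactosidases by description, beside the pollen and anther transcripts, in the 2 fruit and 2 floral bud libraries, 1 point per library. The 13-like group stands at 11.6 and 422 CPM in fruit replicates 1 and 2, while STBG5 stands at 680 and 49.4 CPM in the same libraries.

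Alpha-galactosidases remove galactose from galactomannan and from raffinose sugars. The 10 members summed to 355 and 181 CPM in fruit, against 180 and 185 CPM in bud. The median log2 change of the family was 1.49 without fruit replicate 2 and 0.10 without fruit replicate 1. For the 3 seed imbibition proteins, which KEGG terms place with raffinose synthase and which share 1 description, it was 2.15 and -0.39. Unigene118619_P106, alpha-galactosidase-like isoform 2, stood at 170 and 43.3 CPM in fruit, against 55.4 and 44.7 CPM in bud. Unigene7595_P106, a precursor, was lowest in fruit replicate 1, at 39.4 and 76.2 CPM in fruit, against 63.5 and 72.5 CPM in bud. Unigene44457_P106 stood at 26.2 and 18.4 CPM, against 16.7 and 19.7 CPM, with overlapping organs.

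Mannan endo-beta-mannosidases differ in kind from the enzymes above, since they cut the mannan chain from within. They were the family with no member called higher in any of the fits named here. They summed to 212 and 260 CPM in fruit, against 301 and 316 CPM in bud. Both fruits lay below both buds for 7 of the 15 tested members, against 13.6% of all tested unigenes. Unigene4549_P106, described as 7-like and the most abundant, stood at 66.2 and 118 CPM in fruit, against 109 and 148 CPM in bud, where the organs overlapped. Unigene31268_P106, 2-like, stood at 22.9 and 51.0 CPM, against 45.7 and 48.4 CPM, and Unigene33288_P106, 6-like, at 37.6 and 18.4 CPM, against 20.9 and 22.2 CPM. In Unigene31268_P106 and Unigene33288_P106 the fruits lay on both sides of the buds.

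The low-level 7-like transcripts separated more clearly. Unigene63098_P106 stood at 0.44 and 0.73 CPM in fruit, against 4.40 and 3.94 CPM in bud. Its log2 change was -2.78 (SE 0.55, unadjusted p 0.00517), the smallest p among the members, and it missed the threshold in edgeR over all libraries (Benjamini-Hochberg adjusted p 1) and in DESeq2 (adjusted p 0.0705). It was called lower by edgeR without fruit replicate 2 (log2 change -3.29, SE 0.87, adjusted p 0.00871), and was not called without fruit replicate 1 (adjusted p 0.173). Unigene48453_P106 stood at 0.67 and 1.09 CPM in fruit, against 3.01 and 3.70 CPM in bud. Unigene91258_P106, mannan endo-1,4-beta-mannosidase 1 precursor, stood at 2.0 and 8.74 CPM, against 20.6 and 14.8 CPM, and was called lower without fruit replicate 2 (log2 change -3.23, SE 0.63). Tomato relatives of these enzymes are known from germinating seeds and ripening fruit.

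Beta-mannosidases finish the breakdown of mannan oligosaccharides, and the endo-beta-mannosidases grouped with them act on glycoproteins. The 14 members summed to 622 and 90.3 CPM in fruit, against 163 and 128 CPM in bud, and edgeR called 6 of 10 higher without fruit replicate 2 (background 2.29%). Unigene10359_P106, beta-mannosidase enzyme precursor, stood at 265 and 23.9 CPM in fruit, against 47.9 and 45.4 CPM in bud; fruit replicate 2 was the lowest library. The mannosylglycoprotein endo-beta-mannosidases Unigene8443_P106, at 95.5 and 27.3 CPM in the fruits and 35.9 and 33.8 CPM in bud, and Unigene8906_P106, at 80.4 and 20.4 CPM and 33.1 and 20.5 CPM, had the same order.

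Alpha-mannosidases, which trim glycoprotein sugars in the secretory pathway and the vacuole, were the largest family after the beta-galactosidases. They summed to 863 and 484 CPM in fruit, against 720 and 557 CPM in bud. Their median log2 change was -0.05 without fruit replicate 2 and -0.24 without fruit replicate 1. Unigene130110_P106, lysosomal alpha-mannosidase-like, stood at 121 and 27.4 CPM in fruit, against 57.3 and 28.2 CPM in bud. The most abundant, Unigene28537_P106, stood at 175 and 60.3 CPM in fruit, against 89.8 and 67.6 CPM in bud, and Unigene119364_P106 at 96.4 and 45.3 CPM, against 91.5 and 56.2 CPM. Their organs overlapped. A minor one, Unigene92874_P106, was at 0.33 and 0.73 CPM in fruit, against 1.39 and 2.51 CPM in bud, with a log2 change of -1.83 (SE 0.78).

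Few members had both fruits on the same side of both buds. Both fruits were above for 16 of 163 (9.82%, background 8.49%) and below for 25 (15.3%, background 13.6%). Over all members, both shares thus lay near the background. Of the 64 tested beta-galactosidases, both fruits were above for 15 and below for 6, against the same backgrounds. Many of these share a description and are not independent cases. At least 2-fold higher in both pairs were 3 members (1.84%, background 0.473%), and at least 2-fold lower 8 (4.91%, background 1.84%). In replicates 2 alone, 8 members were at least 2-fold lower (4.91%, background 3.55%). The 8 were the 5 beta-D-xylosidase 1 precursors, the mannan endo-beta-mannosidases Unigene63098_P106 and Unigene48453_P106, and the alpha-mannosidase Unigene92874_P106. The 3 were the alpha-xylosidase Unigene127319_P106, the arabinofuranosidase Unigene127035_P106, which in replicates 2 rested on 2 counts in fruit and 0 in bud, and Unigene127162_P106, the only 1 of them with both fruits above both buds. This beta-galactosidase stood at 14.0 and 19.1 CPM in fruit, against 5.55 and 6.09 CPM in bud. Its log2 change was 1.53 (SE 0.39, unadjusted p 0.0133), and it was the 1 member called without fruit replicate 1 (log2 change 1.83, SE 0.48; edgeR, Benjamini-Hochberg adjusted p 0.0408). A chloroplastic beta-galactosidase precursor, Unigene6933_P106, stood at 27.4 and 21.7 CPM in fruit, against 15.2 and 11.3 CPM in bud, with a log2 change of 0.90 (SE 0.31).

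**Figure D5:**
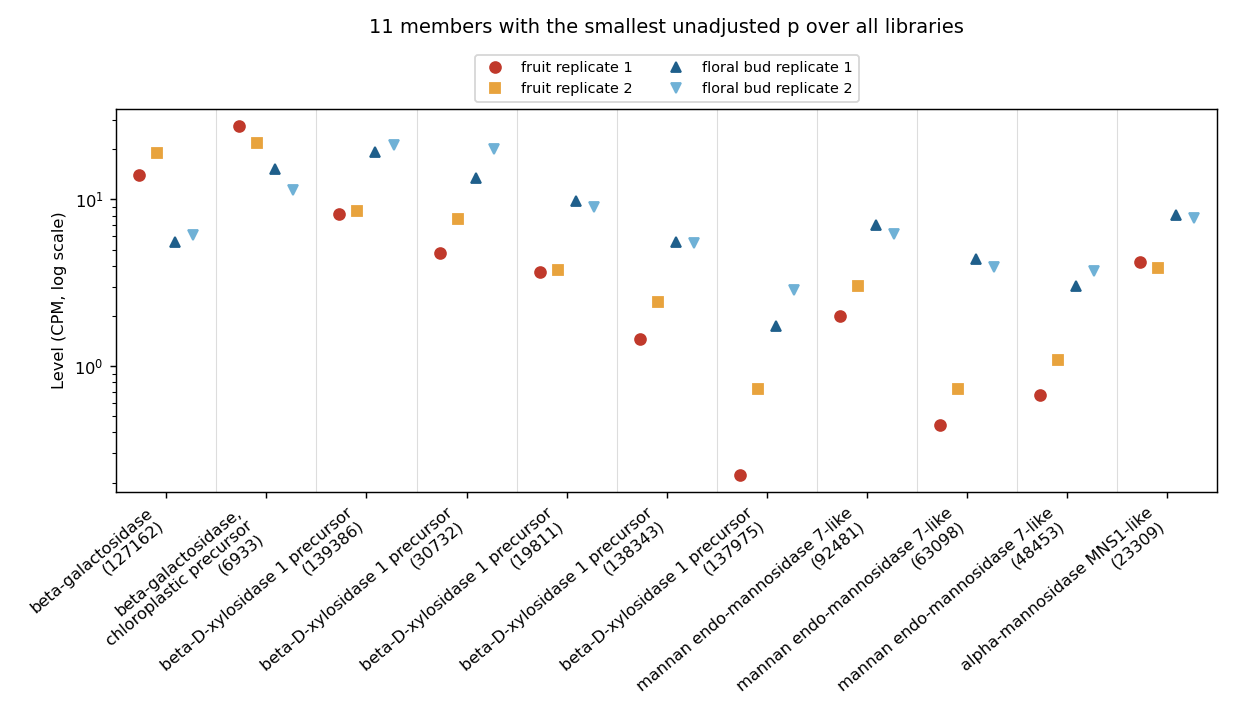
CPM (log scale) of the 11 members with an unadjusted edgeR p under 0.05 over all libraries, 2 higher and 9 lower in fruit, 1 point per fruit or floral bud library. The organs do not overlap in these members, as in Unigene127162_P106 at 14.0 and 19.1 CPM in fruit and 5.55 and 6.09 CPM in bud; they were picked by that p.

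The fruits were also apart in the summed levels of wall enzymes that cut or de-esterify polymers. The sum of the transferases that build them differed less between the fruits, though single transferases were far apart. A cellulose synthase-like protein D4-like transcript stood at 0.11 and 187 CPM in fruit, against 133 and 119 CPM in bud. The 289 endo-acting enzymes, such as polygalacturonases, pectate lyases and xyloglucan endotransglucosylases, summed to 5343 and 11952 CPM in fruit, against 7585 and 9907 CPM in bud. Without fruit replicate 2, edgeR called 28 of 224 higher (background 2.29%) and 48 lower (background 6.14%). Without fruit replicate 1, 18 of 218 were called higher (background 1.44%) and 0 lower (background 0.466%). The 111 pectin esterases, which remove methyl groups before pectin is cut, summed to 2350 and 8072 CPM, against 3225 and 4001 CPM. Their median log2 change was -0.51 without fruit replicate 2 and 0.22 without fruit replicate 1, against -0.03 and -0.05 for all unigenes. The 145 beta-glucosidases, a pattern that also takes in glucan endo-1,3-beta-glucosidases, summed to 1606 and 11432 CPM, against 6746 and 7905 CPM. Their median log2 change was -0.06 without fruit replicate 2 and 0.09 without fruit replicate 1. The 358 transferases that build hemicellulose and pectin summed to 3970 and 4310 CPM, against 4095 and 4259 CPM. Of them, 42 and 5 were at 0 in the fruits and 12 and 11 in the buds. In replicates 1, 44 of the 287 tested were at least 4-fold lower in fruit (background 6.87%) and 2 at least 4-fold higher (background 0.986%). The same counts were 45 lower and 21 higher of 212 endo-acting enzymes, 29 and 7 of 83 pectin esterases, and 21 and 3 of 94 beta-glucosidases. The median log2 change of the transferases was -0.16 when fruit replicate 2 was dropped and -0.04 when fruit replicate 1 was dropped. Over all libraries DESeq2 called 1 endo-acting enzyme higher and 2 lower of 214, and 0 pectin esterases higher and 1 lower of 85. The backgrounds were 0.0491% higher and 0.21% lower. Whether the glycosidases differ from these lists was not tested: their sum was highest in fruit replicate 1, and the sums of the 4 lists were highest in fruit replicate 2.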

How the data were processed

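Per the labels' protocols, libraries were made with some 20 µg of TRIzol-extracted RNA and sequenced on an Illumina HiSeq 2000. The deposited counts, per the file headers, are reads mapped uniquely to each unigene, the deposited RPKM divides them by unigene length and library total, and the deposited coverage is the percent of the unigene's length reached by reads. No aligner, assembler or counter is given in the sources used here. Unigenes missing from a file were set to 0. Members were found by words in the BLAST description of replicate 2 files, or of replicate 1 files where those had none. The replicate 1 files give a description for 206 members, and it matches the words for 98. Counting may have divided reads between near-identical unigenes, and 193 members share a description with another, so their separate levels are uncertain.

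Fruit was compared with bud by edgeR 4.0.16 under R 4.3.3 (filterByExpr by organ, TMM factors of 1.08 and 0.918 for the fruits and 1.04 and 0.964 for the buds, glmQLFit and glmQLFTest, 2 residual degrees of freedom, two-sided, Benjamini-Hochberg over 59858 unigenes, threshold 0.05). DESeq2 1.42.0 was an alternative. CPM values use library totals without TMM factors, and RPKM was used only to compare levels between genes. With 2 libraries against 2, permutation cannot reach 0.05. Sums over families are described with no test, and counts summed by description were fitted with edgeR. Other settings tried were other scalings and filters, a replicate block, single pairs, sums by description and leaving out each library. The unigenes named were the 3 most abundant of each family and the 5 tested members with the largest change in each direction, 34 in all; others were picked with their values in view. The members, gene lists and marker lists were chosen with earlier results of these data known.

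No sequence is printed, since no assembled sequences were used here, and unigenes have no positions.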

Additional observations from a re-analysis of the deposited data

How the results depend on the processing

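The count of called unigenes depended on the fruit library. Over the fits leaving out 1 library each, edgeR with Benjamini-Hochberg adjustment called 0 to 1546 unigenes higher and 0 to 4135 lower, and among the members 0 to 29 higher and 0 to 13 lower. The high ends came without fruit replicate 2, and the low ends without a bud. For members called lower, the low end also came without fruit replicate 1. The members' median log2 change ranged over -0.12 to 0.32 in these fits and was -0.0395 within replicates 2. DESeq2 called 30 unigenes higher and 128 lower. With library totals in place of TMM factors, RLE size factors, no filter, or at least 1 CPM in 2 libraries, every named member that was tested kept its direction and its side of the threshold. The fit with a replicate block called 0 higher and 0 lower. The labels do not say whether same-numbered libraries share a plant or day, though their files share 1 version of the descriptions. Deviations from the organ means correlated at 0.466 between libraries of the same number. With 2 libraries per organ this is 1 value, since the second pair must repeat the first. It is a hint from the data and not the design. Under the replicate block the log2 change of Unigene52662_P106 was -3.80 and that of Unigene54662_P106 -1.64. Counts summed by description gave -0.0256 for the 6 beta-galactosidase 13-like unigenes, among them Unigene54662_P106. They gave 0.60 for the 5 lysosomal alpha-mannosidase-like unigenes, among them Unigene92874_P106. These 2 values belong to the whole descriptions and are not changes of the single unigenes. The cause of the changes under the replicate block was not tested. The direction of 21 named members changed when 1 library was left out, with log2 changes of -0.84 to 2.40 for Unigene10359_P106, -0.62 to 2.86 for Unigene1068_P106, -0.0813 to 1.66 for Unigene118619_P106, -0.57 to 0.30 for Unigene119364_P106, -0.0771 to 0.38 for Unigene128739_P106, -0.50 to 1.43 for Unigene130110_P106, -0.13 to 0.27 for Unigene26104_P106, -0.0235 to 0.39 for Unigene26367_P106, -0.22 to 6.63 for Unigene27893_P106, -0.26 to 1.06 for Unigene28537_P106, -0.37 to 6.59 for Unigene28671_P106, -1.65 to 6.60 for Unigene29242_P106, -0.79 to 1.36 for Unigene29588_P106, -1.15 to 0.24 for Unigene31268_P106, -0.11 to 0.69 for Unigene33288_P106, -9.03 to 1.17 for Unigene52662_P106, -0.21 to 6.35 for Unigene54055_P106, -4.43 to 1.10 for Unigene54662_P106, -0.90 to 0.28 for Unigene7595_P106, -0.23 to 1.35 for Unigene8443_P106, -0.26 to 1.5 for Unigene8906_P106. With 1 count worth 0.111 to 0.121 CPM, depth limits statements on members under a few counts.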
